A study of Mus musculus with 2 samples.

Results

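Replication-gated macrophages are the macrophages of the mouse dorsal root ganglion (DRG) in which the transcripts of DNA replication genes took at least 0.1% of the cell's unique molecular identifiers (UMIs, each of which counts 1 captured transcript). A cell was first taken as a macrophage when C1qa, C1qb and C1qc, the chains of complement component C1q, held at least 0.5% of its UMIs. It then passed the replication gate when Mcm2, Mcm3, Mcm5, Mcm6, Mcm7, Lig1, Tk1, Pclaf, Hells, Dut and Stmn1 together reached the 0.1%. In this way 62 of 1484 C1q-gated macrophages were selected, among the deposited cells of 3 male mice, and the remaining 1422 C1q-gated macrophages served as the comparison. The members were thus chosen by the measured values of these 14 gate genes, which are given as a description and carry no test.

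The study profiled the immune cells of the DRG, the ganglion that holds the cell bodies of sensory neurons, at steady state. All mice were wild-type, naive BALB/cAnNRj animals without any treatment, 3 with a male and 3 with a female hashtag. The methods give a lower limit for the age of all mice but no age for these animals. Ganglia of cervical, thoracic and lumbar levels were pooled and digested with collagenase and dispase, and live CD45+ cells were sorted. Hashtag antibodies, which carry an oligonucleotide that tells the animals apart, were bound to the cells before all of them shared 1 lane of a droplet-based 3′ assay. Male 1, 2 and 3 gave 481, 772 and 1415 deposited cells, with a median of 8261, 7336.5 and 9137 UMIs per cell.

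DNA replication starts when the Mcm2 to Mcm7 helicase ring, loaded onto origins in G1, is switched on in S phase. The GINS complex (including Gins2) is then joined to the ring, DNA ligase 1 (Lig1) seals the lagging strand, and thymidine kinase (Tk1), dUTPase (Dut) and Pclaf serve nucleotide supply and the sliding clamp. Many of these genes are switched on together by E2F transcription factors once cyclin-dependent kinases (Cdk4 and Cdk6, then Cdk2) inactivate the retinoblastoma family, whereas the genes of mitosis are induced later through the CHR promoter element. Macrophages of several adult tissues are known to maintain themselves by dividing locally, beside replacement from blood monocytes, and most of them are at rest at any moment.

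The promoters of 4 genes are shown because they hold the 2 kinds of element, in genes on which the values below turn. Each is 60 bases taken from the 250 bases upstream of the RefSeq start (GRCm38.p6, minus strand of the chromosome, printed 5′ to 3′ along the gene). Capitals mark the matches to the E2F letters TTTCCCGC or TTTGGCGC, or to the CHR letters TTTGAA, on either strand.
Mcm6 (a gate gene, chr1:128359723-128359782): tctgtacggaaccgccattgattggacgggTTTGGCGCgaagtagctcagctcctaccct
Pola1 (DNA polymerase alpha, chrX:93632264-93632323): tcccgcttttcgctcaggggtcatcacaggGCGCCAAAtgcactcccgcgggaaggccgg
Mki67 (the proliferation antigen Ki-67, chr7:135716448-135716507): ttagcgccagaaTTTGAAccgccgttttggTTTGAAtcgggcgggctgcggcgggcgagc
Top2a (topoisomerase 2 alpha, chr11:99024190-99024249): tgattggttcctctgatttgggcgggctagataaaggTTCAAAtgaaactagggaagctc
In the 250 bases searched, Mcm6 held 2 E2F matches and Top2a 2 CHR matches, of which the window shows 1 each. The 2 E2F motifs were found in 427 of 32851 promoters (1.3%). Of the gate genes, 4 of 13 promoters held such a match (30.8%, in Hells, Mcm5, Mcm6 and Mcm7), and of the S phase genes outside the gate 4 of 43 (9.3%, in Cdc6, Cdca7, Gins3 and Pola1). None of the 32 promoters of mitosis genes held these letters. The CHR letters stood in 5252 of all promoters (16%), in 9 of the 43 of S phase genes (20.9%), in 1 of the 13 of gate genes (7.69%) and in 13 of the 32 of mitosis genes (40.6%). Among promoters of the genes tested below, 2.52% held an E2F match and 10.6% a CHR match. A match is a description of the sequence and does not show a bound site.

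The gated cells were unevenly spread over the mice. Male 1 held 8 of 183 macrophages (4.37%, exact Clopper-Pearson interval at 95% 1.91 to 8.43), male 2 held 4 of 519 (0.771%, 0.210 to 1.96) and male 3 held 50 of 782 (6.39%, 4.78 to 8.34). The intervals cover counting error only. Male 2 lay below the others, and male 3 supplied most of the cells. The mean share was 3.85% ± 2.85 (SD, n = 3 mice) and the pooled share 4.18% (3.22 to 5.32).

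In the gated cells the 11 replication genes held between 0.105% and 0.607% of the UMIs, with a median of 0.238%, and between 1 and 150 UMIs, with a median of 41.5. The other macrophages had a median of 1 such UMI and at most 18, and 672 of the 1422 had none. Just inside the threshold were cells at 0.1054% (14 of 13279 UMIs), 0.1107% (25 of 22583), 0.1112% and 0.1191%. Just outside were cells at 0.0964% (1 of 1037 UMIs), 0.0945% (15 of 15868), 0.0878% and 0.0862%. Among the members, 2 shallow cells, of 626 and 654 UMIs, passed the gate on 1 UMI.

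**Figure D1:**
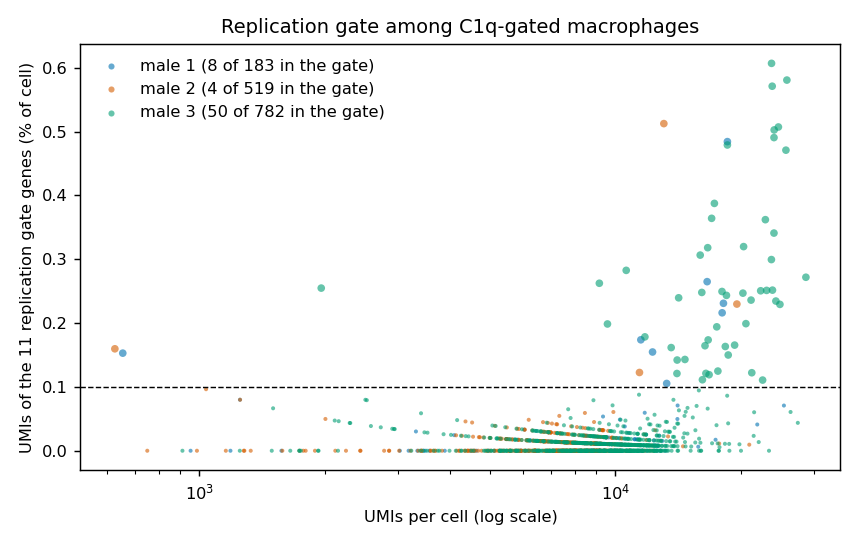
Each point is a C1q-gated macrophage, with its UMIs on a log axis and the share of its UMIs in the 11 replication genes in percent, colored by mouse; the dashed line is the gate at 0.1%. Most of the 62 gated cells lie to the right, with a median of 18043.5 UMIs against 8508 in the other macrophages.

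Among the markers given for these cells, Mcm6, Lig1 and Tk1 are gate genes. Levels of single genes are given as counts per 1000000 UMIs (CPM), summed over the cells of a mouse and scaled with TMM factors. Mcm6, a subunit of the helicase, had 189, 181 and 136 CPM in the gated cells of male 1, 2 and 3, and 5.90, 6.77 and 13.4 CPM in the other macrophages. Lig1 had 197, 271 and 281 CPM against 28.0, 25.01 and 24.9, and Tk1 had 155, 72.4 and 147 CPM against 1.48, 1.47 and 1.89. The most abundant replication gate gene was Stmn1, a microtubule regulator, at 721, 778 and 1062 CPM against 30.3, 25.6 and 31.7. Each of these was higher in the gated cells of each mouse. C1qa did not differ in this way, at 8465, 6697 and 8136 CPM against 8866, 7711 and 9067, and the groups overlapped.

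Gins2 and E2f1 also separated the classes. The gate did not use them, but they are S phase genes given as markers of these cells. Their values, the test of E2f1 included, thus describe the selected cells and are no independent support. Gins2 (chr8:120578633-120589304, GRCm38) had 60.1, 109 and 87.7 CPM in the gated cells of male 1, 2 and 3 and 9.59, 8.53 and 12.4 CPM in the other macrophages. E2f1, the transcription factor itself, had 146, 109 and 79.7 CPM against 14.02, 9.71 and 17.3. In neither gene did the groups overlap. In male 2 each gene had 6 UMIs in the gated cells, with up to 5 of Gins2 and 3 of E2f1 in 1 cell. E2f1 was called by edgeR's quasi-likelihood test, with a log2 fold change of 2.69 ± 0.27 (SE; adjusted p = 5.08e-08). Gins2 passed the filter on low levels with the help of the gated sums, and its log2 fold change, 2.99, is given with no test. A Gins2 UMI was found in 44 of 62 gated cells and 106 of 1422 other macrophages, and an E2f1 UMI in 42 and 147. With each cell thinned to 2000 UMIs, which 59 gated and 1395 other cells reached, these were 14 and 24 cells for Gins2 and 15 and 41 for E2f1. In 189 B cells of the same lane, which lay outside both gates and had a median of 3821 UMIs, 2.65% had a Gins2 UMI and 1.59% an E2f1 UMI.

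The last marker, Ccl7, a chemokine that attracts monocytes, was higher in the gated cells of male 3 but not in those of male 1 and male 2. It had 318, 127 and 2369.8 CPM in the gated cells and 1293, 937 and 1095 CPM in the others, so the gated cells of male 1 and male 2 were below every sum of other macrophages and those of male 3 above. The log2 fold change was 0.10 ± 0.39 and was not called (edgeR, adjusted p = 0.899). With the mouse as a block it was -0.60 (adjusted p = 0.00326), and without male 3 it was -2.10 (adjusted p = 0.000272), within a range of 0.000272 to 0.963 over all alternatives. Single cells gave a different order in male 1. The median was 3.5, 1 and 19.5 Ccl7 UMIs per gated cell of male 1, 2 and 3, against 1 in the other macrophages of each mouse. Of the UMIs in the other macrophages, 5 cells held 44.8%, 16.9% and 12.9% in male 1, 2 and 3, and 5 of the 50 gated cells of male 3 held 37.7%. With 2000 UMIs per cell, 57.1%, 33.3% and 59.2% of the gated cells had a Ccl7 UMI against 36.3%, 33.9% and 36.3%. Ccl2, its neighbor in function, had 841, 362 and 1691 CPM against 950.5, 1125 and 736, with the same order of mice, and was not called (log2 fold change 0.25 ± 0.25, adjusted p = 0.536). Among the markers given, Ccl7 thus had a lower summed level in 2 of 3 mice, and in male 1 the median and the share of cells with a UMI went the other way.

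The gated macrophages were larger libraries than the rest. Their median was 14945.5, 12247 and 18533.5 UMIs per cell in male 1, 2 and 3, against 8873, 7610 and 9386 in the other macrophages, and 3397, 2964 and 4018 genes against 2316, 2119 and 2444. The mean number of UMIs per cell was 1.54, 1.502 and 1.99 times that of the other macrophages of the same mouse. The median share of mitochondrial UMIs was 2.01% and 1.89%. The share of macrophages that passed the gate was 0.833% among those of 200 to 2000 genes (3 of 360), 0.519% at 2000 to 3000 genes (5 of 964), 20.3% at 3000 to 4000 (25 of 123) and 78.4% at 4000 to 5000 (29 of 37). Among macrophages of at least 10000 UMIs the share was 11.9% (7 of 59), 7.14% (3 of 42) and 13.5% (47 of 348) in male 1, 2 and 3. In sums of RNA, a larger amount per cell and a different make-up of that amount are separate quantities, and UMIs per cell are given below beside the shares.

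The authors kept cells with fewer than 5000 genes, a limit that falls within the range of the gated cells. In the larger deposited matrix, 8 C1q-gated macrophages with a male hashtag had 5000 genes or more, all from male 3. Of these, 7 passed the replication gate (87.5%, Clopper-Pearson 47.3 to 99.7), with 5060 to 5885 genes, 25746 to 39425 UMIs and 0.111% to 0.454% of UMIs in the gate genes, and the remaining cell had 0.0707%. They are not among the 62 cells.

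**Figure D2:**
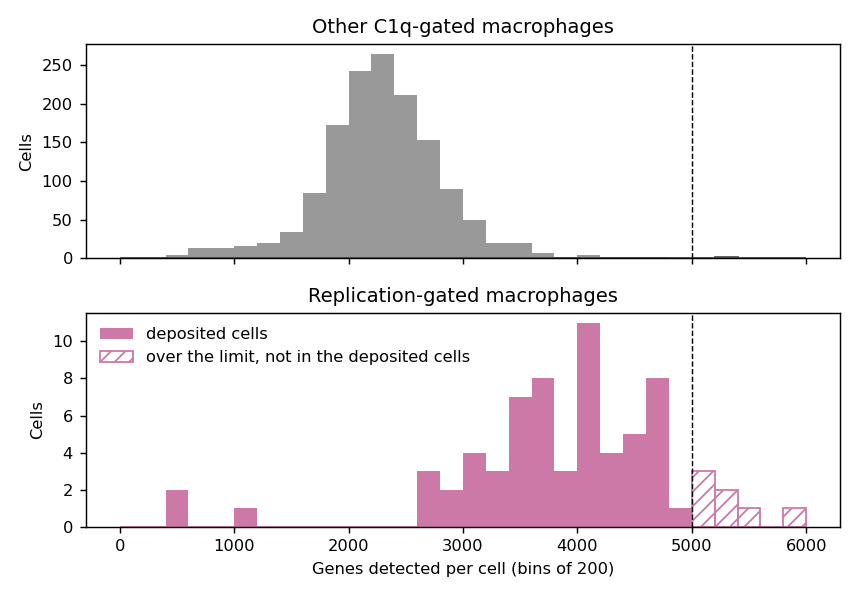
Genes detected per cell in bins of 200 for the other C1q-gated macrophages (upper panel) and the replication-gated macrophages (lower panel), with the number of cells on the vertical axis; the dashed line is the authors' limit of 5000 genes. The gated cells have a median of 3909.5 genes against 2309, and the hatched bars are the 7 gated cells above the limit.

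The raw counts were summed per mouse and class (109146, 44705 and 941868 UMIs in the gated cells of male 1, 2 and 3, and 1546671, 3832758 and 6931400 in the others) and compared over 7500 genes. Of these, 581 were higher (7.75%) and 700 lower (9.33%) in the gated macrophages at an adjusted p of 0.05, so that 17.1% of the genes tested were called, and the median log2 fold change of all genes was -0.12. Of the 7500 genes, 835 lay below the filter level in a sum of other macrophages, and such genes, where they are named, are given with no test. Without TMM factors, 1091 genes were higher and 259 lower, and the median moved to 0.14, a shift of the whole scale, so the changes below are relative to the TMM scale. The calls leaned on male 3, without which 120 genes were higher and 90 lower. Without male 1 there were 563 and 387, and without male 2 there were 577 and 325. Of the 581 higher genes, 532 had more UMIs per cell in the gated cells of each mouse. As these cells held 1.54, 1.502 and 1.99 times the mean UMIs per cell, this largely follows from a higher share and is no separate support. Of the 700 lower genes, 101 had fewer UMIs per cell in each mouse, 152 had more, and 447 were mixed: a lower share of a larger library was often not a lower number of UMIs.

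Among the 10 largest increases in called genes with at least 30 UMIs and the same direction in 3 mice were Ncapg (a condensin subunit, log2 fold change 7.85), Kif4 (a chromokinesin, 6.72), Pbk (a mitotic kinase, 6.47), Brca1 (double strand break repair, 6.33), Cdca3 (6.30), Melk (6.05), Nusap1 (a spindle protein, 6.03), Cenpm (a centromere protein, 5.97) and Pkmyt1 (an inhibitory kinase of Cdk1, 5.95). They rest on 31 to 215 UMIs in the gated cells and on few or none in the others, and they passed the filter on low levels through the gated sums. Pbk had 60.1, 18.1 and 111 CPM in the gated cells of male 1, 2 and 3, and 2.95, 1.18 and 0.472 CPM in the others, with no overlap.

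S phase genes outside the gate were higher almost without exception. Of 50 listed genes, 43 could be tested and 42 were higher (97.7% called, against 17.1% of all genes), with a median log2 fold change of 2.69. For 25 of the 43, a sum of other macrophages lay below the filter level, so this count is given as a description of the cells that the gate selected. Without the filter all 50 were tested and 47 were higher. Without male 3 the count was 23 of 33. Gmnn, the inhibitor of a new round of origin licensing, had 103, 90.5 and 121 CPM against 9.59, 7.65 and 8.82, with no overlap and a log2 fold change of 3.74, which is given with no test. Tyms, which makes thymidylate, was raised by 3.82 on the log2 scale and Pcna, the sliding clamp, by 1.84. Pola1, whose promoter is shown above, was raised by 2.43. Gmnn, Tyms, Pcna and Pola1 were chosen after their values were seen.

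Mitosis genes were higher too, but male 2 differed from the other mice. All 23 of the 34 listed genes that could be tested were higher (100% called, against 17.1% of all genes), with a median of 4.53. For 19 of these 23, a sum of other macrophages lay below the filter level, so this count too is given as a description of the selected cells. Without the filter all 34 were higher. Mki67 had 146, 18.1 and 224 CPM in the gated cells of male 1, 2 and 3 and 11.8, 3.53 and 4.41 CPM in the others. Top2a, which untangles the replicated strands, had 429, 54.3 and 446 CPM against 21.4, 4.12 and 5.51. The groups did not overlap in either gene, although the gated cells of male 2, with 1 Mki67 UMI and 3 Top2a UMIs in 4 cells, were far below the other mice. Both genes passed the filter on low levels through the gated sums, and their log2 fold changes, 5.17 and 5.68, are given with no test. An Mki67 UMI was found in 35 of 62 gated cells and 34 of 1422 others, and a Top2a UMI in 39 and 49. The shares in the other macrophages, 2.39% and 3.45%, lay below those of the B cells, 5.29% and 4.23%, so no level above that of B cells is read from them. Among the other macrophages of male 1, however, a single cell held 12 of the 16 Mki67 UMIs and 23 of the 29 Top2a UMIs.

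To place these macrophages in the cell cycle, they were set beside 133 cells that passed the same replication gate but had less than 0.1% C1q UMIs (41, 19 and 73 in male 1, 2 and 3). For whole lists the level is the summed CPM of the genes, without TMM factors. The S phase list outside the gate summed to 3179, 3311 and 3108 CPM in the gated macrophages (mean 3199 ± 103, SD), to 513, 493 and 514 in the other macrophages and to 4779, 5100 and 4421 in the gated cells that were not macrophages. The mitosis list summed to 5387, 1543 and 5422 CPM in the gated macrophages (4118 ± 2229), to 712, 474 and 513 in the other macrophages and to 11501, 11576 and 11015 in the cells that were not macrophages (11364 ± 305).

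In both lists the gated macrophages lay between the 2 other classes, with no overlap of the classes. Gated macrophages minus gated cells that were not macrophages gave -1567 CPM for the S phase list and -7247 CPM for the mitosis list. The mean ratio of mitosis to S phase levels was 1.30 (1.69, 0.466 and 1.74 in male 1, 2 and 3) against 2.39 (2.41, 2.27 and 2.49). Each difference gave p = 0.1 by a 2-sided exact permutation test over mice, the smallest p that 3 against 3 allow. Both classes come from the same mice, and with the mice paired the exact p was 0.25, the smallest that 3 pairs allow. In the other macrophages the ratio was 1.39, 0.960 and 0.998, so the gated cells of male 2 lay below them. The 2 gated classes were not matched on the gate itself. Its genes summed to 2465, 2841 and 2863 CPM in the gated macrophages and to 3654, 3925 and 3524 CPM in the gated cells that were not macrophages. With the replication gate at 0.2% the mean mitosis levels were 4507 and 11259 CPM in these 2 classes. In single cells the mitosis list held at least 0.1% of UMIs in 41 of 62 gated macrophages (66.1%), in 115 of 1422 other macrophages (8.09%) and in 123 of the 133 cells that were not macrophages (92.5%). The medians were 0.134%, 0.0426% and 1.04%, and 14 of the gated macrophages, 162 of the other macrophages and 7 of the cells that were not macrophages lay between 0.08% and 0.12%, near that level.

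**Figure D3:**
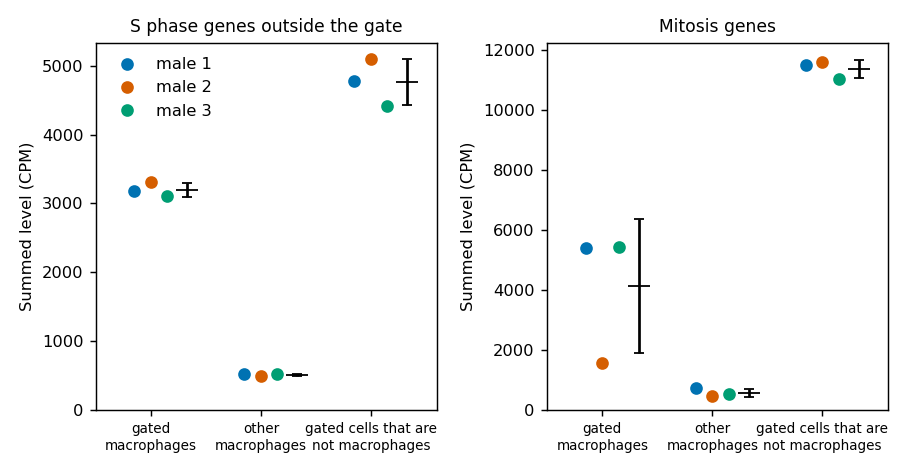
Summed level in CPM of the S phase genes outside the gate (left) and of the mitosis genes (right) in gated macrophages, other macrophages and gated cells that are not macrophages; points are mice, and the bar is the mean ± SD of 3 mice. The gated macrophages lie between the other classes in both panels, and male 2 has 1543 CPM of mitosis genes against 5387 and 5422 in male 1 and 3.

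Genes of cell cycle entry and arrest moved both ways, with 8 of 23 higher and 7 lower (65.2% called, against 17.1% of all genes). The counts were 6 and 4 without male 2, 2 and 1 without male 3, and 9 and 3 without TMM factors. Cdk4, the G1 kinase, had 180.3, 235 and 210.3 CPM against 81.2, 76.8 and 75.3, with no overlap, and was higher by 1.42 ± 0.16 (edgeR, adjusted p = 3.76e-07; 0.0108 without male 3; chosen after its values were seen). The retinoblastoma relative Rbl1 was higher by 2.41 and the Cdk4 and Cdk6 inhibitors Cdkn2c and Cdkn2a by 2.38 and 1.81, as was E2f3 by 1.58. Rbl1, Cdkn2a and E2f3 passed the filter through the gated sums, so that their fold changes are given with no test and 3 of the 8 higher genes are a description of the selected cells. Cdkn2c was listed at 0 in the 4 gated cells of male 2, and without male 3 its adjusted p was 0.097. The lower genes included Btg1 and Btg2, which restrain proliferation (-0.99 and -1.10), and the inhibitor Cdkn1b (-0.77), which were chosen after their values were seen. Without male 3 the adjusted p was 0.0123 for Btg1, 0.0623 for Btg2 and 0.276 for Cdkn1b. Myc was lower by 1.48 in log2 terms with overlapping groups, and by 0.24 with an adjusted p of 0.907 without male 3.

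Among genes of ribosome biogenesis and Myc targets the called ones were all higher. Of the list, 12 of 33 genes were higher and 0 lower (36.4% called, against 17.1% of all genes; median 0.43; 3 of 33 without male 3). Ran, the GTPase of nuclear transport, had 524, 525 and 688 CPM in the gated cells of male 1, 2 and 3 and 221, 185 and 219 CPM in the others. Its partner Ranbp1 had 412, 434 and 428 CPM against 142, 137 and 148. Neither gene overlapped between the groups, and the log2 fold changes were 1.55 ± 0.15 (adjusted p = 2.57e-08) and 1.57 ± 0.14 (adjusted p = 8.15e-09, edgeR). Hnrnpab, an RNA-binding protein, was higher by 0.88. Among chaperones 7 of 24 were higher and 1 lower (33.3% called, against 17.1% of all genes), led by the mitochondrial Hspd1 (0.85). There were 3 higher and 0 lower without male 2, 0 called without male 3, 3 and 0 with the mouse as a block, and 16 and 0 without TMM factors.

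Ribosomal protein genes were called at about the share of all genes. Of 94 genes tested that were matched by their symbol, 2 were higher and 14 lower (17.0% called, against 17.1% of all genes; median -0.22). There were 2 higher and 3 lower without male 1, 2 and 4 without male 2, 1 and 0 without male 3, 9 and 1 without TMM factors, and 1 and 22 with the mouse as a block. All 14 lower genes had more UMIs per cell in the gated cells of each mouse. Rps27 had 2043, 1774 and 1862 CPM against 3200.5, 3101 and 2987.5, and 29.8, 24.5 and 37.4 UMIs per cell against 24.8, 20.5 and 25.9. The 2 genes that were higher, Rps27l (0.79) and Rps19bp1 (0.90), are a p53-induced paralog and a binding protein, and the 94 also hold 7 genes of S6 kinases, of which 0 were called. Rps19bp1 was not called with the mouse as a block (adjusted p = 0.0698) and, like Rps27, not called without male 3. Proteasome genes gave 4 of 38 higher (10.5%, against 7.75% of all genes). The higher ones numbered 1 without male 2, 0 without male 3, 1 with the mouse as a block and 23 without TMM factors. Among the 4, Psmc3ip (2.59), a recombination cofactor, was matched by its symbol and is not a subunit.

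Genes of energy metabolism were examined next. Of 81 oxidative phosphorylation genes 27 were higher and 1 lower (34.6% called, against 17.1% of all genes), with a median log2 fold change of 0.35 against -0.12 over all genes. The count was 3 higher without male 3, 11 in cells of at least 10000 UMIs and 55 without TMM factors. The largest changes were in cytochrome c (Cycs, 0.82) and in the ATP synthase subunits Atp5g3 (0.80) and Atp5g1 (0.77), and none of the 3 was called without male 3 (adjusted p = 0.598, 0.824 and 0.0672). Uqcr10, of complex III, had 378, 308 and 395 CPM against 218, 198 and 252, without overlap (0.76 ± 0.15, adjusted p = 0.00107; 0.0516 without male 3).

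Of 19 glycolysis genes 5 were higher and 3 lower (42.1% called, against 17.1% of all genes), around a median of 0.01, with 5 and 1 without male 2, 7 and 1 without TMM factors, and 2 and 2 with the mouse as a block. Pgk1, which makes ATP in lower glycolysis, had 189, 127 and 164 CPM against 76.0, 60.6 and 69.5, with no overlap (1.28 ± 0.18, edgeR adjusted p = 7.67e-06; 0.0279 without male 3). Gapdh was higher by 0.67 (adjusted p = 0.109 without male 3) and was chosen after its values were seen. Aldolase (Aldoa, -1.07), the glycolysis activator Pfkfb3 (-0.996) and hexokinase 2 (Hk2, -0.70) were lower, and Hk2 was not called with the mouse as a block (adjusted p = 0.065). Without male 3, Pgk1 was the remaining call in the list, at 1 of 16 tested.

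Nucleotide synthesis genes were higher in 8 of 17 tested genes and lower in 0 (47.1% called, against 17.1% of all genes), and 28 were listed. The median was 0.81, and 2 of 15 were higher without male 3. The higher genes included the deoxycytidylate deaminase Dctd (2.57), the purine synthesis enzymes Gart (1.58) and Atic (1.20) and the mitochondrial serine hydroxymethyltransferase Shmt2 (1.32). Each of the 4 rests on 11 to 54 UMIs in the gated cells, and 2 of the 17 genes, Dctd among them, passed the filter through these cells, so Dctd is given with no test. Without male 3, Gart and Atic were not called (adjusted p = 0.256 and 0.405), and Shmt2 was not called by DESeq2 (0.203). Cholesterol and fatty acid synthesis gave 0 higher and 1 lower of 15 (6.67% called, against 17.1% of all genes). The lower gene was Insig1, a brake on sterol synthesis, at -1.83, which is given with no test. The counts were 2 higher and 1 lower of 20 without male 1, 1 higher and 0 lower of 19 without male 2, and 0 of 12 without male 3.

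Ppia and Prdx1, which the paper names for a smaller macrophage cluster with stress-induced genes, were placed in the redox list here. In that list 4 of 20 genes were higher and 1 lower (25% called, against 17.1% of all genes; 1 and 1 without male 3). Ppia, cyclophilin A, had 2816, 3475 and 3379 CPM in the gated cells of male 1, 2 and 3 and 1951, 1815 and 1866 CPM in the others. Prdx1, a peroxiredoxin, had 1176, 814 and 1224 CPM against 773, 685 and 809. Every gated sum was above every other sum in both genes. The log2 fold changes were 0.78 ± 0.13 for Ppia (adjusted p = 0.000172; 0.0172 without male 3) and 0.56 ± 0.15 for Prdx1 (adjusted p = 0.00983; 0.147 without male 3, edgeR). Prdx4 (1.18) and thioredoxin (Txn1, 0.79) were the others, neither of them called without male 3.

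**Figure D4:**
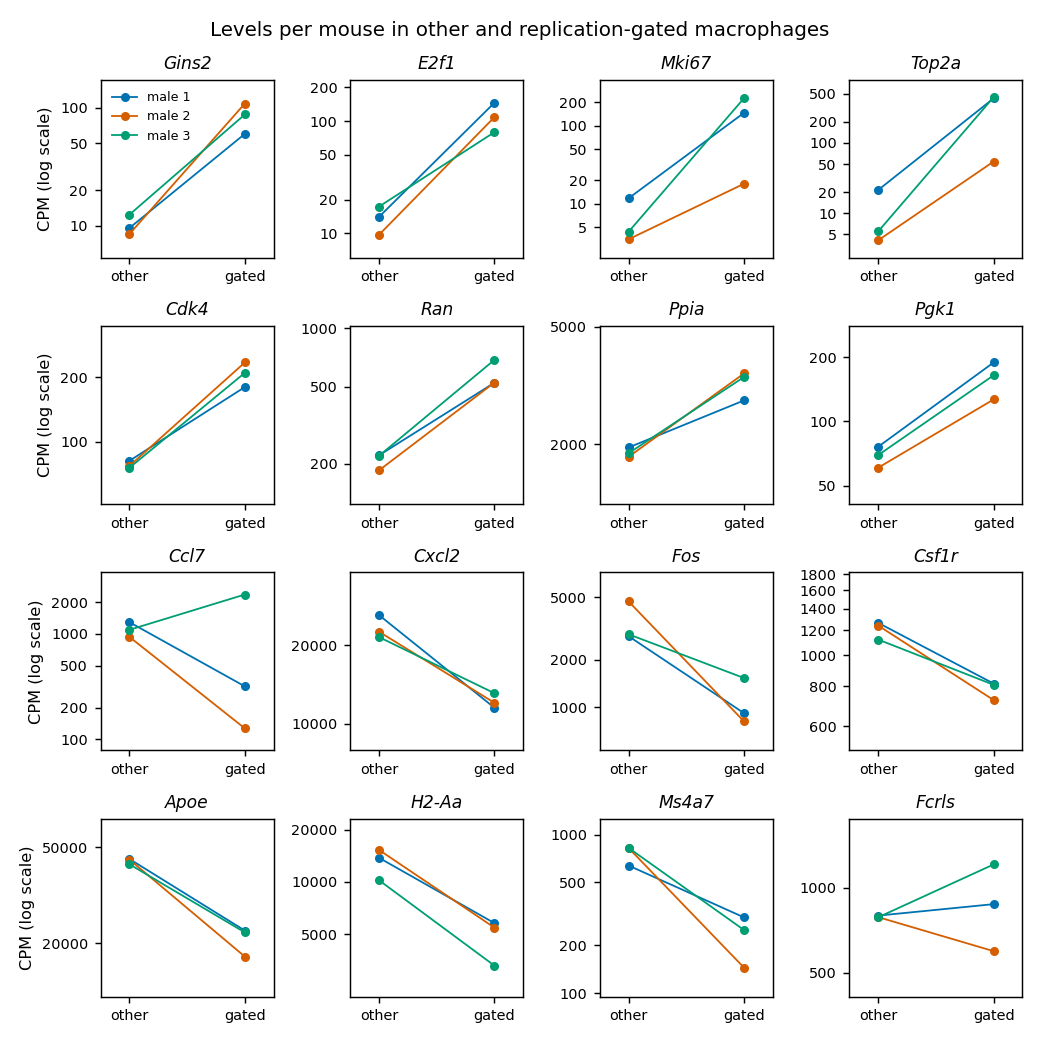
Level in CPM (log axis, TMM-scaled) of 16 genes in the other and the replication-gated macrophages of each male mouse, with a line for each mouse. Gins2 to Pgk1 run upward in every mouse, Cxcl2 to Ms4a7 run downward in every mouse, and Ccl7 and Fcrls differ in direction between the mice.

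Among chemokine genes the calls were lower ones. Of 16 tested, 0 were higher and 6 lower (37.5% called, against 17.1% of all genes), with a median of -0.42. The lower calls were 4 without male 3 and 4 without TMM factors. Without male 1, 2 were higher and 7 lower of 17, and with the mouse as a block 0 were higher and 10 lower. Of the 6 lower genes, 1 had fewer UMIs per cell in each mouse, 1 had more and 4 were mixed. Cxcl2, a neutrophil attractant, had 11521, 12036 and 13099 CPM in the gated cells and 26116, 22552 and 21508 CPM in the others. The groups did not overlap, and Cxcl2 was lower by 0.94 ± 0.14 in log2 terms (edgeR, adjusted p = 1.52e-05). Per cell it had 168, 166 and 263 UMIs against 202, 149 and 187, which was fewer in male 1 and more in male 2 and 3. Cxcl3 (-2.70) and the interferon-induced Cxcl10 (-1.54) were also lower, and neither was called without male 3. Cxcl10 lay below the filter level in a gated sum and is given with no test. Ccl24, an eosinophil attractant of resident macrophages, was lower by 1.28 in log2 terms (adjusted p = 0.0756 in cells of at least 10000 UMIs).

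Genes of the response to growth factors and cytokines were lower or not called. Of 33 tested, 0 were higher and 15 lower (45.5% called, against 17.1% of all genes), with a median of -0.64. The lower ones numbered 3 without male 3 and 9 in cells of at least 10000 UMIs. Of the 15, 1 had fewer UMIs per cell in each mouse, 4 had more and 10 were mixed. Csf1r, the receptor for the macrophage growth factors CSF1 and IL-34, had 816, 724 and 808 CPM in the gated cells of male 1, 2 and 3 and 1265, 1240.1 and 1121 CPM in the others. The groups did not overlap, and the log2 fold change was -0.61 ± 0.14 (edgeR, adjusted p = 0.00335). The adjusted p was 0.0994 without male 1, 0.0836 without male 3 and 0.101 without TMM factors. Per cell, Csf1r had 11.9, 10.0 and 16.2 UMIs against 9.79, 8.18 and 9.72, more in each mouse. The growth factor Areg (-2.27), the early response gene Ier3 (-1.06) and the survival gene Mcl1 (-0.83) were also lower. Areg, not called without male 3, lay below the filter level in a gated sum and is given with no test. Mcl1 was chosen after its values were seen.

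Immediate early genes, the first transcripts that cells make after a stimulus, were the most uniform of the lower lists. The paper reports signs of expression induced by the ex vivo digestion, above all in macrophages, and names Fos, Jun, Atf3 and Rhob. The part of the digestion in the values below was not tested. Of 23 immediate early genes tested, 21 were lower and 0 higher (91.3% called, against 17.1% of all genes), with a median of -1.08. The count was 14 without male 3, 15 without male 2, 17 without TMM factors and 11 of 21 in cells of at least 10000 UMIs. Fos had 919, 814 and 1534 CPM in the gated cells and 2822, 4685 and 2903 CPM in the others. Jund had 1313, 561 and 1179 CPM against 3169, 3436 and 2773. Neither gene overlapped between the groups, and they were lower by 1.57 ± 0.20 (adjusted p = 2.82e-06) and 1.53 ± 0.18 (adjusted p = 6.74e-07, edgeR) in log2 terms. Dusp1 (-1.40), a phosphatase of MAP kinases chosen after its values were seen, and Klf4 (-1.46) were lower as well. Hspa1a, at -1.67 and not called without male 2, lay below the filter level in a gated sum and is given with no test. Per cell, Fos had 13.4 and 11.2 UMIs against 21.9 and 30.9 in male 1 and male 2, and 30.8 against 25.2 in male 3. Of the 21 lower genes, 1 had fewer UMIs per cell in each mouse, 1 had more and 19 were mixed.

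The DRG macrophages were divided in the study into CD163+ and CD163- subsets, so the subset genes were examined next. Among CD163+ subset genes 0 of 21 were higher and 6 lower (28.6% called, against 17.1% of all genes; median -0.28), and without TMM factors 2 were higher and 4 lower. Without male 1 there were 2 higher and 7 lower of 24, and without male 3 there were 1 and 4. Of the 6 lower genes, 3 had more UMIs per cell in each mouse, 1 had fewer and 2 were mixed. Fcrls, a scavenger receptor of this subset, had 876, 597 and 1209.8 CPM in the gated cells of male 1, 2 and 3 and 798, 788 and 787 CPM in the others. The gated cells of male 1 and male 3 were above and those of male 2 below the narrow range of the others, and Fcrls was not called (0.29 ± 0.16, adjusted p = 0.235; 0.59 and called without TMM factors). Cd163 (-0.33, adjusted p = 0.171) and the mannose receptor Mrc1 (-0.22, adjusted p = 0.351) were not called. The lectin Clec10a, which the paper names for a small cluster with an epineural signature, was at -2.63 and is given with no test. The growth factor Igf1 was lower (-0.93), with an edgeR adjusted p of 0.254 without male 3.

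Among CD163- subset genes 0 of 26 were higher and 14 lower (53.8% called, against 17.1% of all genes), with a median of -0.82. Without male 3 the count was 1 higher and 9 lower of 25, and without TMM factors 2 higher and 12 lower. Of the 14 lower genes, 6 had fewer UMIs per cell in each mouse, 1 had more and 7 were mixed. H2-Aa, an MHC class II chain, had 5786, 5448 and 3293 CPM in the gated cells and 13749, 15262 and 10211 CPM in the others. Cd74, the class II invariant chain, had 15479, 15728 and 11349 CPM against 41101, 42531 and 31959. There was no overlap in either gene, and the log2 fold changes were -1.45 ± 0.18 (adjusted p = 1.75e-06) and -1.45 ± 0.15 (adjusted p = 1.21e-07, edgeR). H2-Ab1 (-1.54) and H2-Eb1 (-1.49) moved alike.

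In contrast to most lower genes, these transcripts were also fewer per cell. H2-Aa had 84.2, 75.2 and 66.1 UMIs per gated cell against 106, 101 and 88.6, and Cd74 had 225, 217 and 228 against 318, 281 and 277. S100a6 (-1.73), the lysozyme Lyz2 (-0.98) and the cytokine Il1b (-0.88) were lower too. Il1b had an adjusted p of 0.0695 without male 3, and S100a6 one of 0.0798 within cells with Fcrls and no Ccr2 UMI. Cd74, Lyz2 and Il1b were chosen after their values were seen. Ccr2, the monocyte chemokine receptor, had 197, 54.3 and 223 CPM against 292, 271 and 240.2. It was lower in each mouse, without overlap of the groups, but was not called (-0.42 ± 0.19, edgeR adjusted p = 0.134). Of 19 monocyte genes present in the data 7 could be tested, with 0 higher and 2 lower (28.6% called, against 17.1% of all genes). The 2 were Ifitm3 (-0.69) and Nr4a1 (-0.62), neither of them called without male 3. With the mouse as a block, 4 genes of this list were lower.

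Gated cells were also sorted by whether they held an Fcrls UMI, a Ccr2 UMI, both or neither. Cells with a Ccr2 UMI and no Fcrls UMI were 0%, 0% and 2.0% of the gated macrophages of male 1, 2 and 3 (1 of 62 cells), against 13.7%, 9.32% and 11.3% of the others. With 2000 UMIs per cell they were 0%, 0% and 6.12% (3 of 59) against 17.5%, 13.7% and 15.2%. The groups did not overlap at either depth, with mean differences of -10.8 and -13.5 percentage points, and 2-sided exact permutation tests over mice gave p = 0.1, the smallest that 3 against 3 allow (0.2 after adjustment over the 4 classes; 0.25 with the mice paired, the smallest that 3 pairs allow). Cells with Fcrls alone were 37.5%, 25% and 40% against 42.3%, 51.1% and 43.3%, but 71.4%, 66.7% and 53.1% against 45.0%, 48.6% and 49.6% at 2000 UMIs. The order of the groups was thus opposite at equal depth (exact permutation p = 0.1 in both, 0.25 paired). Cells with both were 34 of 62 (mean difference 6.40 percentage points, exact p = 0.6; 1.16 to 14.9 when a mouse was left out, and 2.04 at 2000 UMIs) and cells with neither were 3 of 62. In B cells, used as a guide to free RNA, 29.1% had a Ccr2 UMI and 6.35% an Fcrls UMI. Whether these UMIs were free RNA or the B cells' own was not tested. With 8 and 4 cells in male 1 and male 2, a share in these mice moves by a whole cell at a time.

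Genes by which macrophages are recognized were lower or not called. Of 24 identity genes tested, 0 were higher and 10 lower (41.7%, against 9.33% of all genes; median -0.42; 3 without male 1, 6 without male 2 and 3 without male 3), and without TMM factors 3 were lower. Apoe, the lipid carrier, had 22561, 17610.1 and 22176 CPM in the gated cells and 44636, 44363 and 42444 CPM in the others, with no overlap (-1.07 ± 0.14, edgeR adjusted p = 2.49e-06). Per cell it had 328, 243 and 445 UMIs against 346, 293 and 368. Ms4a7 had 300.5, 145 and 250.1 CPM against 638, 823 and 824 (-1.62 ± 0.18, adjusted p = 2.4e-07), and fewer UMIs per cell in each mouse, 4.38, 2.00 and 5.02 against 4.94, 5.43 and 7.14. It was the only 1 of the 10 lower identity genes with fewer UMIs per cell in each mouse, as 6 had more in each mouse and 3 were mixed. Fcgr1 (CD64, 0.00, adjusted p = 0.994) and Aif1 (IBA1, 0.04, adjusted p = 0.902) were not called, and both were chosen after their values were seen.

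Among lysosomal and interferon-regulated genes the called ones were all lower. Of 26 lysosome genes 8 were lower and 0 higher (30.8% called, against 17.1% of all genes), with a median of -0.36. The lower ones numbered 4 without male 1, 4 without male 2 and 2 without male 3. Without TMM factors 2 were higher and 2 lower. Of the 8 lower genes, 1 had fewer UMIs per cell in each mouse, 3 had more and 4 were mixed. The protease Ctsl (-1.33) and the sphingolipid activator Psap (-0.82) led, both still called without male 3 (adjusted p = 0.0104 and 0.039), Psap at 0.061 within cells with Fcrls and no Ccr2 UMI. Of 20 interferon-regulated genes 10 were lower and 0 higher (median -0.93), whereas 17.1% of all genes were called and 9.33% were lower. However, 1 was called without male 2, 1 without male 3 and 2 by DESeq2. Of the 10 lower genes, 3 had fewer UMIs per cell in each mouse and 7 were mixed. Ifit2 and Ifit3 among them, with 5 and 9 UMIs in the gated cells, lay below the filter level in at least 1 gated sum. They passed the filter through the other macrophages, so this count is in part a description of the cells. Isg15 had 8.58, 18.1 and 40.9 CPM against 52.4, 104 and 238. The gated cells held 43 Isg15 UMIs in all, and 18.1 CPM in male 2 stands for 1 UMI. Both classes had their highest level in male 3, and the log2 fold change was -1.98 ± 0.49 (edgeR, adjusted p = 0.0064; 0.0856 without male 2 and 0.14 without male 3). The paper names Isg15 for a smaller macrophage cluster, and how many gated cells belong to it was not examined. Of 15 iron handling genes 1 was higher and 2 lower (20.0% called, about the 17.1% of all genes; 0 without male 1, and 0 higher and 1 lower without male 2 or without male 3).

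Genes with the lowest fold changes included several that were not found in the gated cells at all. Cd209a and Cd209b, lectins of dendritic cells and macrophages, the histone demethylase Kdm5b and Zrsr1 had 0 UMIs in the 62 cells. Their levels in the other macrophages were 14.3, 8.08, 7.35 and 5.09 times a floor of 3 counts over the gated group. That floor counts UMIs and not cells, so it gives no bound for a gene that few macrophages hold. The paper names Cd209a for a small cluster with an epineural signature, and the spread of these 4 genes over cells was not examined. Cd209a had 31.7, 46.2 and 31.7 CPM in the other macrophages of male 1, 2 and 3. Pla2g2d, a secreted phospholipase, had 34.3, 0 and 14.95 CPM against 123, 223 and 102, without overlap and with a log2 fold change of -3.20. Hal (-4.17), Insr (-2.95), Bambi (-2.86) and Slfn5 (-2.79) were also among the 10 lowest, and the first 3 of these rest on 3 UMIs or fewer in the gated cells. Slfn5 was not called without male 3 (adjusted p = 0.117). All of the others named here passed the filter through the other macrophages, where they are high, and are given with no test. The same holds for Insig1, Areg, Cxcl10, Clec10a and Hspa1a, which lay below the filter level in at least 1 gated sum.

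**Figure D5:**
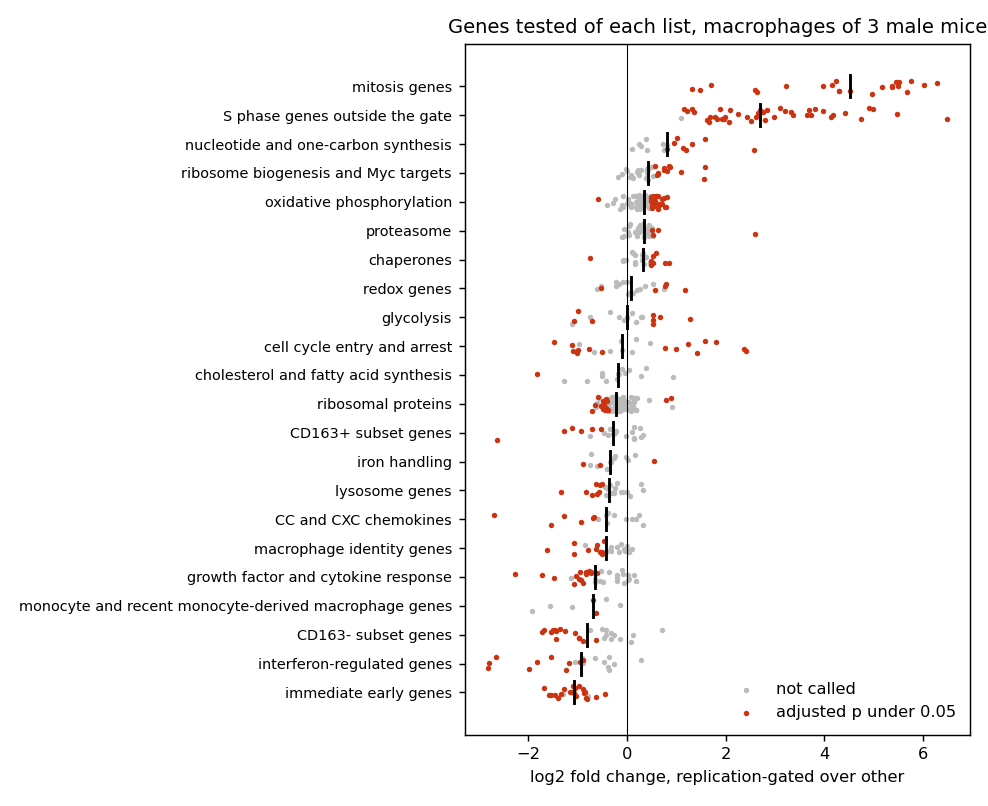
Log2 fold change of each gene tested in 22 lists, replication-gated over other macrophages of 3 male mice; red points have an adjusted p under 0.05 (edgeR), gray points do not, and the black bar is the median of the list. The median runs from 4.53 in the mitosis list to -1.08 in the immediate early list, against -0.12 over all 7500 genes.

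Markers of other cell types were counted in the same cells, as the summed CPM of each list. Markers of B cells had 431, 514 and 297 CPM in the gated macrophages of male 1, 2 and 3 and 330.4, 342 and 329 in the others, and 301 of their 350 UMIs were Ighm, while Ms4a1, Vpreb3, Igll1 and Rag1 were among the 5 of 12 genes at 0. Markers of T, NK and innate lymphoid cells were at 17.0 and 14.7 CPM (mean over mice), with 24 of 28 UMIs in Cd3e and 8 of 12 genes at 0. Markers of neutrophils were lower in the gated cells, at 962, 447 and 674 CPM against 972, 1068 and 2719, led by S100a9 with 329 of 760 UMIs, and none of the 12 genes was at 0. Markers of dendritic cells were at 73.3, 22.4 and 61.6 CPM against 249.6, 244 and 164, 49 of 67 UMIs were Siglech, and Xcr1, Clec9a, Flt3, Cd209a and Itgae were at 0. Markers of neutrophil precursors, mast cells, endothelium and erythroid cells were below 10 CPM in each class, fibroblast markers had 160 and 297 CPM (200 of 312 UMIs in Apod) and glia markers 44.9 and 56.2. Their part in the results was not tested gene by gene. Without cells that had at least 0.5% of UMIs in these lists, 582 genes were higher and 709 lower. Scrublet marked 12 of the deposited cells as doublets (0.450%), too few to be informative, and 0 of them were gated, and cells with 2 hashtags had been removed by the authors.

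The same gates were applied to the 1073 cells with a female hashtag in the larger matrix, which the selection of the 62 cells had not used. There 2 of 211, 3 of 177 and 0 of 222 C1q-gated macrophages passed (0.820% pooled, Clopper-Pearson 0.267 to 1.90), and for the count of 0 the floor of 3 counts is 1.35% and the upper Clopper-Pearson limit 1.65%. The mean was 0.881% ± 0.849 (SD, n = 3), of the order of male 2. These 5 cells held 30296 UMIs in all, and 2 of them passed on 1 gate UMI. The mitosis list summed to 12975 and 15687 CPM in the gated cells of female 1 and 2 against 435 to 500 in the other macrophages of the 3 females, and the S phase list to 1347 and 2532 against 505 to 540.4. Mki67 had 7 and 17 UMIs in these cells and Top2a 10 and 12, while Gins2 and E2f1 had 0. H2-Aa was at 7161 and 1420.5 CPM against 13363 to 14668, and Cd74 at 17655 and 4076 against 37513 to 41162, in the direction of the male mice, as was Apoe at 14535 and 29335 against 35172 to 38445. Cxcl2, at 25383 and 18404 CPM against 19863 to 26618, lay within the range of the other macrophages in female 1 and below it in female 2. Fos, at 780 and 3088 CPM against 2597 to 3933, lay below that range in female 1 and within it in female 2. All of these values rest on 5 cells.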

How the data were processed

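CD45+ cells of 3 male and 3 female naive BALB/cAnNRj mice were measured in 1 lane with hashtags. The authors deposited raw UMI counts from Cell Ranger (3.1.0 in the matrix header; build mm10), not normalized, for 2668 cells and 16819 gene symbols, after filters in Seurat (200 to 5000 genes, under 5% mitochondrial UMIs) and hashtag demultiplexing, and raw counts of 4395 barcodes with 6 hashtags. HTODemux (Seurat 5.3.0, R 4.3.3, quantile 0.99) assigned mice, and deposited labels gave the sex. The paper names 3 mice, and each hashtag was taken as a mouse. Counts shared by both matrices were compared, and 0 differed. Hashtag doublets (269) and negatives (101) were left out.

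UMIs were summed per mouse and class, the 14 gate genes were kept in library sizes but not tested, and genes at 8.04 CPM or more in at least 3 sums were tested with edgeR's quasi-likelihood test (4.0.16; TMM, Benjamini-Hochberg over all genes, 0.05). The same-mouse sums correlated in their deviations at 0.0538, 0.0689 and 0.105 and those of different mice at -0.0836 to -0.0188. The pairs come from the same animal, and the mouse as a block was an alternative, with DESeq2 1.42.0, other filters and gates, thinning to 2000 UMIs and each mouse left out. On simulated data with 7290 genes, 16.9% of genes changed by a log2 of 1 and 81.2% of those changed by 2 were recovered, with 7 false calls. The depth, 44705 UMIs in 4 cells of male 2, limits precision.

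Named genes are the markers given, 11 further genes, the 10 largest called changes in each direction (same direction in all 3 mice, at least 30 UMIs) and up to 4 called genes of each of 22 lists. Some of these are not reported here. Others are said to be chosen after their values were seen. The members and lists were chosen with earlier results of these data known. B cells used as a guide to free RNA had at least 3 UMIs of Cd79a, Cd79b, Ms4a1 or Ighm, under 0.1% of C1q and under 0.1% of replication genes. Promoters are from RefSeq tables, and gene positions from GENCODE (GRCm38).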

Additional observations from a re-analysis of the deposited data

Results flagged for a closer look

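Cells above the authors' limit on genes were looked at because they lie outside the deposited set. Among the 8 male-hashtag C1q-gated macrophages of 5000 genes or more, 87.5% passed the replication gate. With these cells added, 628 genes were higher and 828 lower.

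Cells with a female hashtag, which the comparison did not use, also passed the gate, at 0.820% of C1q-gated macrophages. In a fit of these mice, 397 of 7492 genes were called (66 higher and 331 lower) by edgeR with a median log2 fold change of -1.13 over all genes, on 2 sums of gated cells of few UMIs. Of the 397, 196 were among the male calls and 191 of those had the same direction. With the mouse as a block, 91 genes were called (30 higher and 61 lower), and 64 of these were male calls, all in the same direction.

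The difference between the classes was tested for a change with the sex of the hashtag (edgeR, interaction of class and sex). Of 7332 genes, 95 were called, 92 of them with a positive and 3 with a negative term, and the median of the term over all genes was 1.03. The female sums of gated cells hold 5 cells, so sex, depth and these few cells cannot be told apart.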

How the results depend on the processing

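The calls (581 higher, 700 lower, 1281 in all) kept within 1.5 times under most alternatives. They fell to 596 with DESeq2 (354 higher, 242 lower), to 709 when a random part of the UMIs set the gate and the rest was tested (314 lower), to 668 within cells with a Ccr2 UMI (299 higher, 369 lower), to 518 within cells with Fcrls and no Ccr2 UMI (295 and 223) and to 574 in cells of at least 10000 UMIs (362 and 212; added after seeing the data). Leaving out a mouse gave 210 to 950 calls (120 to 577 higher, 90 to 387 lower), lowest without male 3. Without TMM factors there were 1091 higher and 259 lower. With the replicate block of the mouse, 478 were higher and 620 lower, Ccl7 turned to -0.60, and 8 named genes lost their call (Hk2, Rps19bp1, Psmd14, Psma6, Psmc3, Dnajb1, P2ry12 and Blvra). Ccl7 was 0.62 without male 1 and -2.10 without male 3, and Il1rn was 0.42 with the gate at 0.05%. Of 102 named genes called, 41 were called under every alternative that tested them. At 2000 UMIs the difference in cells with Fcrls alone turned to 15.98 percentage points and in those with neither to -4.55. With all UMIs and a mouse left out, it ran from -15.4 to -4.05 for Fcrls alone and from 0.704 to 25.8 for neither. Leaving out a mouse gave 2.57% to 5.38% for the mean share of macrophages that passed the replication gate. In the female mice 91 genes were called with the block, and 1222 when all 6 mice were fitted. With the classes of a mouse paired, added after seeing the data, the exact tests of shares and of mitosis levels gave 0.25 to 0.75, cells thinned to 2000 UMIs included. The cause of these changes was not tested. With 8, 4 and 50 cells, depth in male 1 and 2 limits every result.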
